A study of Homo sapiens with 8 samples.

Results

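The 9 genes described here set whether a cell passes from G1 into S phase: the D-type cyclins CCND1, CCND2 and CCND3, their partner kinases CDK4 and CDK6, the INK4 inhibitors CDKN2A, CDKN2B and CDKN2C, and RB1, the substrate that gives the route its name. They were found by gene symbol, 9 of the 50006 genes counted in each library. They were chosen by their levels in these same libraries, which an earlier look at the groups had shown, so their values are a description and no test of them is read. D-type cyclins bind CDK4 or CDK6, and the active pair phosphorylates RB, which then releases the E2F factors that switch on genes of DNA replication. INK4 proteins bind the kinases and keep the cyclins off. In airway epithelium, cyclin D1 is known to be induced by growth factor and adhesion signals.

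The cells were BEAS-2B, an immortalised human bronchial epithelial line labelled wild type and grown in serum-free LHC-9 medium, profiled in a study of adhesion-related expression. FBG cells received fibrinogen, FCP cells a preparation made with Der m 1 (a cysteine protease allergen of house dust mites), and aC cells the αC domain of fibrinogen, each at 4 ng/µl for 4 h; Mock cells received PBS. The labels do not expand FCP. BEAS-2B cells carry SV40 T antigen, a viral protein that binds RB family proteins, so all 4 groups share a line in which RB control is altered; that protein was not measured here. Each group had 2 libraries, 8 in all. The labels call the 2 biological replicates, and do not say whether they came from separate cultures on separate days. The errors and p-values therefore cover only the spread between those libraries, which need not include the spread between separate experiments.

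Total counts were 15137196 and 15144403 in FBG, 21715092 and 21680688 in FCP, 22258791 and 22248780 in aC, and 16553366 and 16561302 in Mock. The lowest level that 3 counts allow ran from 0.135 to 0.198 CPM. The labelled cell type was checked on 10 airway epithelial markers, whose summed level was 813 to 825 CPM in FBG, 3555 to 3605 in FCP, 3492 to 3554 in aC and 962 to 972 in Mock, where GRHL2 was at 0. The summed level of 10 fibroblast markers was 1233 to 1242 CPM in FBG, 235 to 236 in FCP, 246 to 247 in aC and 2423 to 2455 in Mock, and COL3A1 was at 0 in every library. Of 8 blood and immune markers, 2 exceeded 3 counts in each group, and the sum of the 8 ran from 14 to 34.6 CPM. COL3A1 and the immune marker PTPRC are annotated in more than 1 copy. Reads that match each copy may go uncounted, so a level of 0 does not show absence for these genes. COL1A1 led the fibroblast sum in every group, at a mean of 2155 CPM in Mock, and KRT5 led the epithelial sum in FCP (1581) and aC (1603). FAP went the other way, at 4.74 in FCP and 4.29 in aC against 1.04 in FBG and 0.8 in Mock. The fibroblast sum was also lower in FBG than in Mock. As sums, the markers thus moved with the contrast between FCP or aC and the other groups, as CCND1, CCND2, CDK4 and CDK6 below did. The part of the epithelial and fibroblast markers in those levels was not tested. In a bulk sample, fewer cells of a type and less RNA per cell cannot be told apart. FCP and aC also had higher total counts than FBG and Mock. Genes with a count numbered 24283 to 24602 in FCP and aC and 20694 to 21533 in FBG and Mock. A difference of culture or library batch along that split could not be told apart from the treatment.

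In FCP and aC cells CCND2 was present at 242 to 304 CPM while FBG and Mock cells held almost none, CCND1 was over 3 times its Mock level, and CDK6 was about 9 and 10 times its Mock level. CDK4, CDKN2A and CDKN2C were lower than in Mock, and CCND3 and RB1 lay within 0.01 of Mock on the log2 scale, though not under other scalings. In FBG cells CCND1, CDK6 and RB1 were higher and CDK4, CDKN2A and CDKN2B lower than in Mock. The FBG differences of CCND1, CDK6, CDK4 and CDKN2A were smaller than those in FCP and aC, and that of CDKN2B was larger. Levels are CPM scaled by TMM (a trimmed mean of ratios that sets libraries on a common scale), and fold changes are log2 values from edgeR. Each ± is the larger of the fitted standard error and the counting error, since the fitted one fell below counting error in 16 of 54 pairs of gene and comparison.

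**Figure D1:**
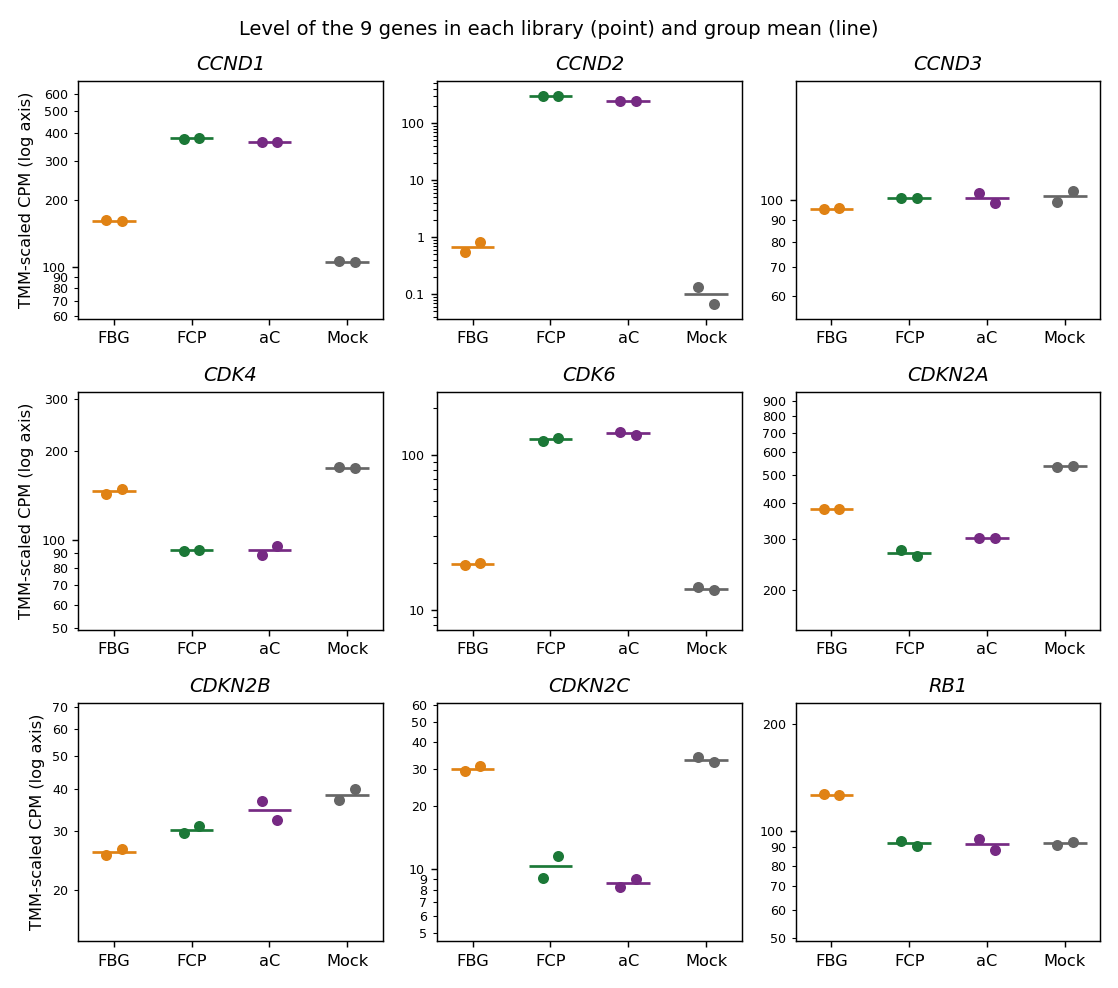
TMM-scaled CPM of each of the 9 genes (vertical log axis, its range set per gene) in the 2 libraries (points) and the mean (line) of FBG, FCP, aC and Mock. CCND2 stands at 301 and 304 CPM in FCP and 242 and 247 in aC, against at most 0.808 in FBG and 0.133 in Mock, while CCND3 stays between 95.5 and 105 CPM in all 8 libraries.

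CCND1 encodes cyclin D1, the member of the family most often tied to growth factor and integrin signals (chr11:69641156-69654474, plus strand, GRCh38.p14). It had 162 and 160 CPM in FBG, 377 and 381 in FCP, 364 and 365 in aC, and 106 and 105 in Mock. The libraries of a group lay close together and no 2 groups overlapped. CCND1 was higher than in Mock by 0.61 ± 0.033 on the log2 scale in FBG, 1.84 ± 0.0279 in FCP and 1.79 ± 0.0279 in aC. Against FBG the log2 differences were 1.24 ± 0.0236 in FCP and 1.18 ± 0.0236 in aC. FCP and aC differed little, by -0.06 ± 0.0189 for aC against FCP, a difference called only when just those groups were fitted, when FBG replicate 1 was left out or when GC content and length were removed, which gave -0.10.

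CCND2 encodes cyclin D2, which many cell types express little of or replace with cyclin D1 (chr12:4273762-4305353, plus strand). Its raw counts were 8 and 12 in FBG, 6961 and 6893 in FCP, 5829 and 5722 in aC, and 2 and 1 in Mock. Mock lay at or below the 3 counts that a level of 0 allows per library, and FBG just above it. The ratio of summed counts, scaled for library size, was 3025 for FCP over Mock, with a 95% counting interval of 1035 to 14671. For aC over Mock it was 2443 (836 to 11847), and for FBG over Mock 6.74 (2 to 35.4). Only 3 reads in all stand behind the Mock side, so the size of these ratios is loose. Against FBG, FCP was 449 times FBG (291 to 735) and aC 362 times FBG (235 to 594). Between aC and FCP the CCND2 log2 difference was -0.31 ± 0.0267, the largest estimate of the 9 genes. That of CDKN2C, -0.26 ± 0.1, lay within its error of this value. CCND2 had 247 and 242 CPM in aC against 304 and 301 CPM in FCP, a ratio of 0.808 (0.788 to 0.828). CCND2 passed the filter on low counts only through the FCP and aC libraries. The antisense gene CCND2-AS1, which shares 1.94% of its exon length, had 0 counts in FBG and Mock and at most 8 in the other libraries.

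CCND3 encodes cyclin D3, the most widely expressed of the family (chr6:41934933-42050035, minus strand). Its level was 95.5 and 95.7 CPM in FBG, 101 and 101 in FCP, 104 and 98.5 in aC, and 99.1 and 105 in Mock. FCP and aC libraries lay inside the Mock range or beside it, and FBG libraries lay just below all the others. The log2 difference from Mock was -0.09 ± 0.0376 in FBG, -0.01 ± 0.0357 in FCP and -0.01 ± 0.0357 in aC. These depended on scaling: with total counts in place of TMM they were 0.02, 0.21 and 0.22, and with GC content and length removed 0.14, 0.23 and 0.19. The FBG difference, called lower with TMM (adjusted p = 0.0409), was thus called higher with GC content and length removed (adjusted p = 0.00302).

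Per kilobase of exon, CCND1 made up most of the D-type cyclin RNA in every group, and CCND2 took the place of the share that CCND3 held in Mock. CCND2 made 0.146% and 0.221% of the summed D-type cyclin level in FBG, 30.1% and 29.7% in FCP, 26.4% and 26.2% in aC, and 0.0464% and 0.0227% in Mock. CCND3, at a nearly constant level, made 32.6% and 32.8% in FBG, 12.6% and 12.6% in FCP, 13.9% and 13.4% in aC, and 43.3% and 45% in Mock. The sum of the 3 cyclins was 56.8 and 56.5 RPKM (TMM-scaled CPM per kilobase of exon) in FBG, 155 and 156 in FCP, 144 and 142 in aC, and 44.3 and 45.1 in Mock. The FCP and aC sums were thus more than 3 times the Mock sums, with CCND1 and CCND2 both contributing.

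**Figure D2:**
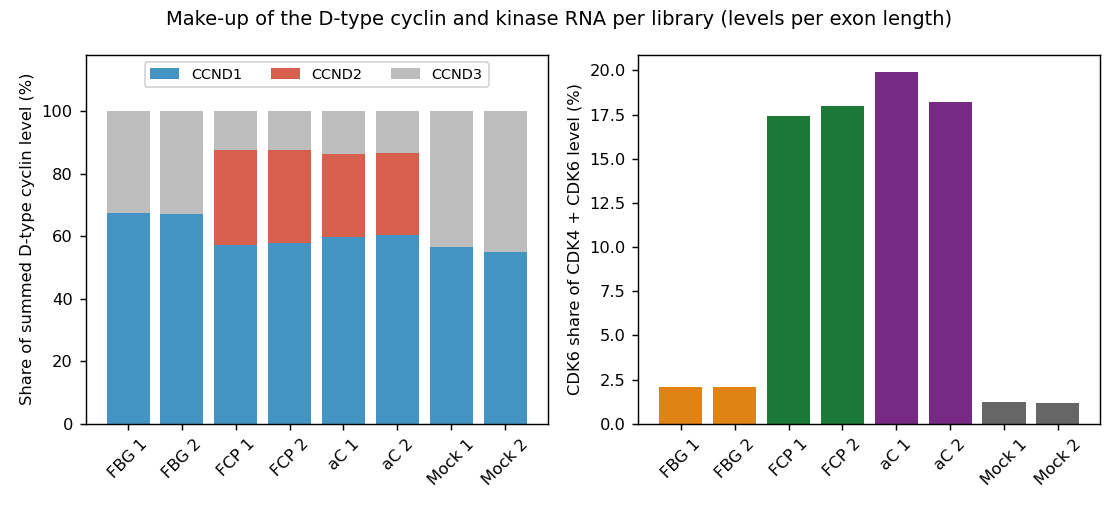
Left, the share (%) of CCND1, CCND2 and CCND3 in the summed D-type cyclin level per exon length, for each of the 8 libraries. Right, the share (%) of CDK6 in the summed CDK4 and CDK6 level. CCND2 fills 26.2% to 30.1% of the bar in FCP and aC libraries and at most 0.221% in FBG and Mock, and CDK6 reaches 17.4% to 19.9% in FCP and aC, against 1.19% to 2.1% in FBG and Mock.

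The partner kinases moved apart, and their promoters (250 bases before to 50 after the start, RefSeq, GRCh38.p14) are shown because the pair is where opposite differences meet in a single enzyme class. The table of promoters held 13 starts of 7 of the 9 genes, with none for CCND1 or CCND2. Capitals mark matches on either strand to CACGTG (an E-box), GGGCGG (a GC box bound by SP1), TTTCGCGC (an E2F motif), TGANTCA (AP-1) and TGACGTCA (CRE).
CDK4, chr12:57752261-57752560, minus strand: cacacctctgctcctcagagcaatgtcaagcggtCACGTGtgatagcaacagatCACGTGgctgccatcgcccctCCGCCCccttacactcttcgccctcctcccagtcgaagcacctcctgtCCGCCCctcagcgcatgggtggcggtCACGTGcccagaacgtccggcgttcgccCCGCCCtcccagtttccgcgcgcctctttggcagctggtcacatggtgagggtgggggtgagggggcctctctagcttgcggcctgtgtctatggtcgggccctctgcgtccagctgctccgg
CDK6, chr7:92836524-92836823, minus strand: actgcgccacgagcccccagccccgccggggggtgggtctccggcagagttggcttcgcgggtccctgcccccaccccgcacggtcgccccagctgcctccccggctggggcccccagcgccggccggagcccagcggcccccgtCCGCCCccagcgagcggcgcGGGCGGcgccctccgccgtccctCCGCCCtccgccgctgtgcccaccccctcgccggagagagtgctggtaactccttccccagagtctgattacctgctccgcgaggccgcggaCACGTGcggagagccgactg

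The CDK4 window held 3 E-boxes and 3 GC boxes, and the printed CDK6 window 1 E-box and 3 GC boxes, with no overlap between matches and no match to the E2F, AP-1 or CRE letters. Of 35116 promoters of this length, 7.26% held CACGTG, 45% GGGCGG, 0.515% TTTCGCGC, 7.71% TGANTCA and 1.85% TGACGTCA. The table held another CDK6 start (chr7:92833910-92834209), not printed, whose window had 68.7% GC and none of the 5 motifs. The printed CDK6 window had 78% GC and the CDK4 window 66%, against a median of 58.7%. These matches are letters in a window, and nothing in the files measures binding there.

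CDK4 is the more widely expressed of the kinases (chr12:57747727-57752310, minus strand). Its level was 143 and 149 CPM in FBG, 91.6 and 92.3 in FCP, 88.9 and 95.2 in aC, and 176 and 175 in Mock. Mock was highest, FBG next, and the FCP and aC libraries overlapped at the bottom. The log2 difference from Mock was -0.27 ± 0.0332 in FBG, -0.93 ± 0.0334 in FCP and -0.93 ± 0.0333 in aC. With GC content and length removed these were -0.02, -0.50 and -0.53, and the FBG call ended (adjusted p = 0.552). CDK4 shares 57.8% of its exon length with TSPAN31 on the opposite strand, a membrane protein gene. Reads falling there are assigned to neither gene by the counting program unless it is told otherwise, and no strand option was set, so the CDK4 level is uncertain and may be too low.

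CDK6 is the kinase that haematopoietic and stem-like cells favour (chr7:92604921-92836573, minus strand). It had 19.4 and 20.1 CPM in FBG, 122 and 128 in FCP, 140 and 134 in aC, and 14 and 13.4 in Mock. The groups did not overlap, and FCP and aC stood far above FBG and Mock. CDK6 was higher than in Mock by 0.53 ± 0.0928 on the log2 scale in FBG, 3.19 ± 0.0737 in FCP and 3.32 ± 0.0734 in aC. The difference between aC and FCP was 0.13 ± 0.0371, and its call ended when any FCP or aC library was left out (adjusted p from 0.0722 to 0.409) and in DESeq2 (0.165).

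Per exon length, CDK4 RNA was the larger pool. The sum of both kinases on that scale was thus lower in FCP and aC than in Mock in spite of the CDK6 level. The sum was 78.1 and 81.4 RPKM in FBG, 59.4 and 60.3 in FCP, 59.5 and 62.4 in aC, and 95.7 and 95 in Mock. CDK6 made 2.1% and 2.09% of it in FBG, 17.4% and 18% in FCP, 19.9% and 18.2% in aC, and 1.24% and 1.19% in Mock. If CDK4 is divided by only the exon length it does not share, the mean CDK6 share was 0.9% in FBG, 8.36% in FCP, 9.09% in aC and 0.52% in Mock. The order of the groups held on both lengths, while the share itself depended on the length by more than 2 times. In CPM, without division by length, mean CDK6 exceeded CDK4 in FCP (125 against 91.9) and in aC (137 against 92). In Mock CDK6 had 13.7 and CDK4 176, so the sum in CPM was higher in FCP and aC than in Mock.

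The INK4 inhibitors as a sum were lower in FBG, FCP and aC than in Mock, and the 3 genes differed among themselves. CDKN2A made 83.8% to 87.5% of that sum per exon length over the 8 libraries. CDKN2A holds a pair of promoters, printed because the count per gene cannot tell their transcripts apart: the first starts the ARF transcript, whose protein guards p53, and the second starts p16, the INK4 inhibitor.
CDKN2A, upstream start, chr9:21995275-21995574, minus strand: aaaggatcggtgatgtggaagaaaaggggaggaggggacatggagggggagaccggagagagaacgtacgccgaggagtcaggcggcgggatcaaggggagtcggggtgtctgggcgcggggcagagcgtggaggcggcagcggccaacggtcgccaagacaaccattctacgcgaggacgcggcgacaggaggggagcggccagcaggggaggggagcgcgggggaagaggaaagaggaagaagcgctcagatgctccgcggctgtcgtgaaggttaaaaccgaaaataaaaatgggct
CDKN2A, downstream start, chr9:21974808-21975107, minus strand: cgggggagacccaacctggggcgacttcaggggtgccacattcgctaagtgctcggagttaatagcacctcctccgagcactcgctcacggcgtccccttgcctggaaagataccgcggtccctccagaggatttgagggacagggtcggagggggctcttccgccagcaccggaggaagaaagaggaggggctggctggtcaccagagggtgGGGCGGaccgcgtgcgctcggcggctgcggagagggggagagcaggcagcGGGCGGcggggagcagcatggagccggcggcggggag

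The downstream window held 2 GC boxes and the upstream window none of the 5 motifs. The CDKN2A values below therefore cover p16 and ARF together (chr9:21967752-21995324, minus strand). CDKN2A had 382 and 380 CPM in FBG, 276 and 263 in FCP, 303 and 303 in aC, and 534 and 536 in Mock. The groups did not overlap, with Mock highest and FCP lowest. The log2 difference from Mock was -0.49 ± 0.0203 in FBG, -0.99 ± 0.0201 in FCP and -0.82 ± 0.0198 in aC, and aC exceeded FCP by 0.17 ± 0.0203. With GC content and length removed the differences from Mock were -0.25, -0.70 and -0.57. CDKN2A was among the most abundant of the 9 genes per exon length in all groups, first in FBG and Mock and second to CCND1 in FCP and aC. In aC those leading levels, 85.9 and 86.1 RPKM for CCND1 beside 85.5 and 85.6 for CDKN2A, were almost equal.

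CDKN2B encodes p15, an INK4 inhibitor known as a target of TGF-beta (chr9:22002903-22009313, minus strand). It had 25.4 and 26.5 CPM in FBG, 29.5 and 30.9 in FCP, 36.8 and 32.3 in aC, and 36.9 and 39.8 in Mock. FBG was lowest, and aC 1 reached almost the lower Mock library. The log2 difference from Mock was -0.56 ± 0.0714 in FBG, -0.34 ± 0.0692 in FCP and -0.15 ± 0.0687 in aC. The FCP difference was -0.12 with total counts in place of TMM (adjusted p = 0.115) and -0.09 with GC content and length removed (0.231), and the aC difference was 0.08 under both.

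CDKN2C encodes p18, an INK4 inhibitor whose level follows the cell cycle (chr1:50968706-50974634, plus strand). It had 29.1 and 30.9 CPM in FBG, 9.13 and 11.6 in FCP, 8.25 and 9.01 in aC, and 34 and 32.2 in Mock. FCP and aC lay together far below Mock, and FBG was close to Mock. The log2 difference from Mock was -0.14 ± 0.0928 in FBG, -1.68 ± 0.097 in FCP and -1.94 ± 0.0983 in aC, the lowest of the 9 genes in FCP and aC. The aC and FCP libraries differed by -0.26 ± 0.1, which was called only without FCP replicate 1 (-0.42, adjusted p = 0.0168). CDKN2C shares 54.5% of its exon length with the antisense gene LOC124904176, which had 7 to 17 counts per library, so its level per length is uncertain while its differences rest on the same stretch in every library. The sum of the 3 INK4 genes was 127 and 128 RPKM in FBG, 89.3 and 87.4 in FCP, 98.5 and 97.9 in aC, and 176 and 176 in Mock. Most of it was CDKN2A, whose count holds ARF as well as p16.

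RB1 encodes the retinoblastoma protein that the kinases phosphorylate (chr13:48303751-48481890, plus strand). It had 127 and 126 CPM in FBG, 93.7 and 91 in FCP, 95.2 and 88.4 in aC, and 91.6 and 93.3 in Mock. FBG stood above all other libraries, and the FCP and aC libraries overlapped with Mock. The log2 difference from Mock was 0.45 ± 0.0375 in FBG, -0.00 ± 0.0372 in FCP and -0.01 ± 0.0371 in aC. These values did not hold across settings, and RB1 has the lowest GC content of the 9 genes, at 42.3%. With GC content and length removed they were 0.17, -0.43 and -0.41, and with total counts in place of TMM 0.57, 0.22 and 0.22. In FCP and aC RB1 was thus called lower in one setting and higher in the other. FCP and aC lay below FBG in every setting, by -0.45 ± 0.0362 and -0.46 ± 0.0361.

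**Figure D3:**
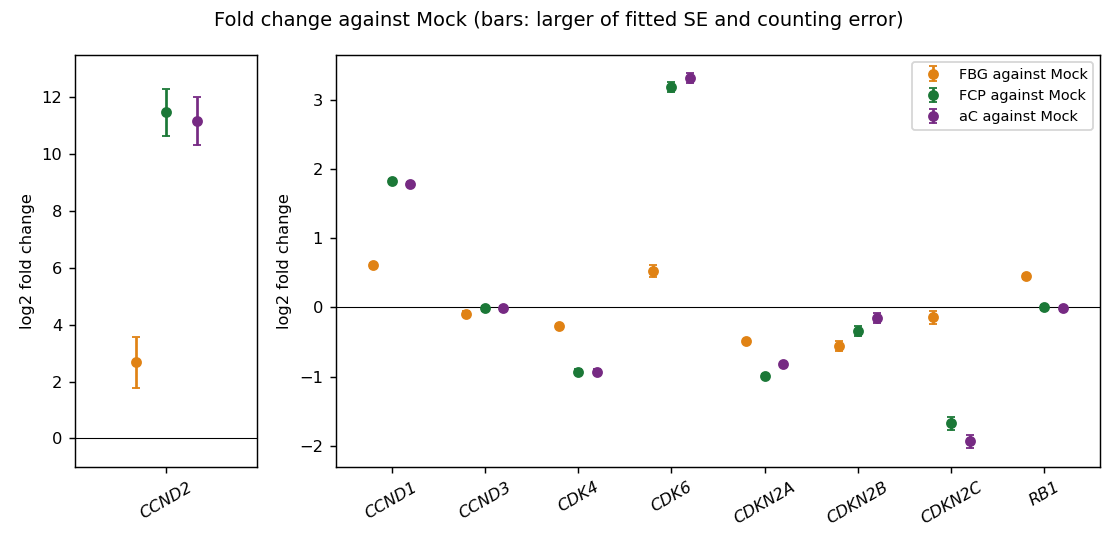
log2 fold change (vertical axis) of CCND2 (left, on its own scale) and the other 8 genes (right) in FBG, FCP and aC against Mock, with bars for the larger of the fitted standard error and the counting error. FCP and aC points lie together for each gene, from -1.94 for CDKN2C in aC to 3.32 for CDK6 in aC, and at 11.47 and 11.16 for CCND2.

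Counts of called genes have to be read beside the background, because most genes passed the test in most comparisons. At an adjusted p under 0.05 (edgeR's quasi-likelihood test, Benjamini-Hochberg over 16307 genes), 8 of the 9 genes were called in FBG against Mock, 4 higher and 4 lower, beside 50.4% of all genes. In FCP against Mock 7 were called, 3 higher and 4 lower, beside 73.4% of all genes (37.3% higher and 36.1% lower). In aC against Mock 6 were called, 3 higher and 3 lower, beside 74.7% (38% higher and 36.7% lower). These shares of all genes leave nothing to be read from the members' counts. In FCP against FBG all 9 were called, 5 higher and 4 lower, beside 66.8%, and in aC against FBG 8, 4 higher and 4 lower, beside 68.3%. Only aC against FCP was sparse: 3 were called, CDK6 and CDKN2A higher and CCND2 lower, beside 9.01% of all genes. The 3 comparisons with Mock share the Mock libraries, and those with FBG share the FBG libraries. Scaling moved the balance of all calls: 47.9% of those in FBG against Mock and 50.8% in FCP against Mock were higher, against 63.3% and 63.1% with total counts. The median of all genes in FCP against Mock was then 0.28 on the log2 scale in place of 0.06, above the 0.21 of CCND3 and the 0.22 of RB1.

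The genes downstream of RB were given by a list of 17 E2F target genes of DNA replication. The list was chosen with earlier results of these data known. In FCP and aC against Mock, the targets differed in the opposite direction to CCND1, CCND2 and CDK6. They differed in the same direction as CDK4 (-0.93 in FCP and -0.93 in aC), CDKN2A and CDKN2C, and as CDKN2B in FCP. The summed CDK4 and CDK6 level was also lower there per exon length, and higher in CPM. All 17 fell in FCP against Mock, with a median log2 difference of -0.63 beside 0.06 for all genes tested, of which 36.1% were called lower. All 17 also fell in aC against Mock, with a median of -0.63, where 36.7% of all genes were called lower. TK1, the S phase thymidine kinase, had 295 and 302 CPM in FBG, 155 and 155 in FCP, 155 and 158 in aC, and 331 and 336 in Mock, a log2 difference of -1.11 ± 0.0228 in FCP. MCM2, a subunit of the replicative helicase, had 519 and 529 CPM in FBG, 344 and 347 in FCP, 356 and 358 in aC, and 609 and 600 in Mock, a difference of -0.81 ± 0.0174 in FCP. RRM2, the S phase subunit of ribonucleotide reductase, had 737 and 736 CPM in FBG, 500 and 508 in FCP, 503 and 499 in aC, and 777 and 779 in Mock, a difference of -0.63 ± 0.0155 in FCP. For each of these genes FCP and aC lay together, below FBG, and FBG lay just below Mock. With total counts in place of TMM 15 of 17 fell in FCP against Mock (median -0.41), MCM3 and POLA1 being the exceptions, and with GC content and length removed 15 of 17 fell (median -0.46), MCM3 and TYMS being the exceptions. In aC against Mock 15 of 17 fell under each of these settings (medians -0.40 and -0.43), with the same exceptions. The list was also lower against FBG, with 17 of 17 in both FCP and aC at a median of -0.55, and with 16 of 17 in both under either setting. Of all genes, 34.2% were called lower in FCP against FBG and 34.5% in aC against FBG. In FBG against Mock 4 rose and 10 fell at a median of -0.07, and with total counts 7 rose and 4 fell at a median of 0.04, so no direction can be given there. In aC against FCP, CDT1, a replication licensing factor, was the only gene of the 17 that was called, at 0.17 ± 0.0356.

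**Figure D4:**
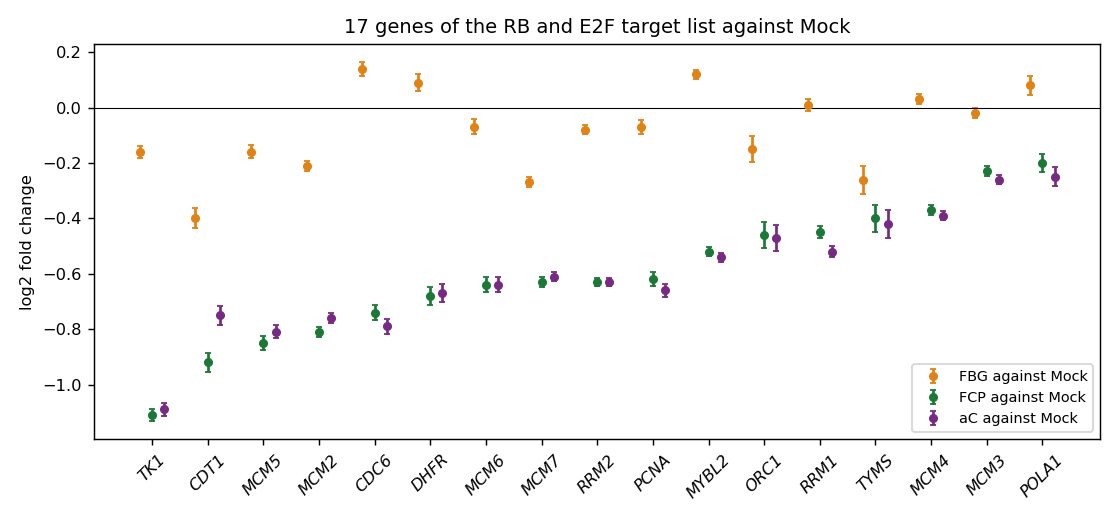
log2 fold change against Mock (vertical axis, bars for the larger of the fitted standard error and the counting error) of the 17 E2F target genes, ordered by their value in FCP. FCP and aC points lie below 0 for every gene, down to -1.11 for TK1, while FBG points lie between -0.40 and 0.14.

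The other inhibitors of the kinases were mixed. CDKN1A encodes p21, a CIP inhibitor that p53 induces, and its level was 113 and 113 CPM in FBG, 186 and 192 in FCP, 223 and 219 in aC, and 106 and 108 in Mock. It rose in FCP by 0.82 ± 0.0298 and in aC by 1.05 ± 0.0291 against Mock, and it was higher in aC than in FCP by 0.23 ± 0.025. CDKN1B, which encodes p27, had 56.3 and 59.3 CPM in FBG, 36.4 and 33.8 in FCP, 36 and 35.5 in aC, and 50.2 and 51.4 in Mock, and fell in FCP (-0.53 ± 0.0544). CDKN2D, which encodes the fourth INK4 protein p19, was low at 3.68 to 6.2 CPM and was not called in FCP (-0.13 ± 0.193) or aC (-0.09 ± 0.192). CDKN1C was below the filter. It is among 3 genes of the pathway lists annotated in more than 1 copy. Reads that match each copy may go uncounted, so its low level is uncertain.

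Of the other pocket proteins, which share RB's cyclin and E2F binding, RBL1 (p107) rose in FBG, FCP and aC against Mock. It had 116 and 115 CPM in FBG, 120 and 119 in FCP, 119 and 121 in aC, and 77.9 and 76.4 in Mock, with log2 differences of 0.58 ± 0.0388 in FBG, 0.63 ± 0.0358 in FCP and 0.63 ± 0.0356 in aC. RBL2 (p130) rose by 0.23 ± 0.045 in FCP and 0.18 ± 0.045 in aC, calls that ended with GC content and length removed (0.04 and 0.01). Of 9 tested E2F and DP factors, 2 rose and 6 fell in FCP against Mock. E2F3, an activating E2F, had 48.5 and 47.8 CPM in FBG, 74.7 and 75.9 in FCP, 73.4 and 74.1 in aC, and 43.4 and 47.7 in Mock, a difference of 0.72 ± 0.0469 in FCP. E2F1, another activator that is itself an E2F target, had 58.2 and 58.5 CPM in FBG, 37.9 and 38.4 in FCP, 44.2 and 45 in aC, and 61.2 and 57.8 in Mock, a difference of -0.64 ± 0.0488 in FCP. These activators went opposite ways within the same libraries. TFDP1, the DNA-binding partner of the E2Fs, fell (-0.28 ± 0.0228) in FCP, and this call ended with GC content and length removed (-0.05), as did the E2F1 call in aC (-0.10).

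Genes that build or destroy the cyclin and kinase complex were mixed. Of 5 genes for kinase activation and folding, 2 rose and 2 fell in FCP against Mock. CDC37, the co-chaperone that loads CDK4 and CDK6 onto HSP90, fell in FCP (-0.56 ± 0.0244) and in aC (-0.61 ± 0.0244), and MNAT1, a subunit of the CDK-activating kinase, fell (-0.28 ± 0.0559) in FCP, a call that ended with total counts (-0.06). HSP90AB1, an HSP90 itself, was counted among the 2 that rose at only 0.01 ± 0.00687 in FCP, and the aC difference of -0.13 ± 0.00696 was 0.10 with total counts. Of 7 genes for D-type cyclin turnover, 1 rose and 3 fell in FCP. GSK3B, the kinase that marks cyclin D1 for export and decay, rose by 0.37 ± 0.0316 in FCP and 0.57 ± 0.0313 in aC. DDB1, the adaptor of the ubiquitin ligase that takes up D-type cyclins through AMBRA1, fell (-0.63 ± 0.0185) in FCP, as did FBXO31, a ubiquitin ligase receptor for cyclin D1 after DNA damage (-0.75 ± 0.0581).

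Of the G1 to S cyclins, CDK2 and the phosphatase CDC25A, 1 of 5 rose and 3 fell in FCP against Mock. CDK2, the kinase that acts after CDK4 and CDK6, fell (-0.51 ± 0.0286), as did CCNE1, one of its cyclins (-0.81 ± 0.136). CCNE2, the other cyclin E, was the gene that rose, by 0.33 ± 0.0796, a call that ended with GC content and length removed (0.13). CCNA2 fell (-0.23 ± 0.0241), a call that ended with total counts (-0.01). Of 5 other substrates of CDK4 and CDK6, 1 rose and 4 fell in FCP. FOXM1, a mitotic transcription factor that these kinases stabilise, fell (-0.76 ± 0.0209), as did FZR1, an activator of the anaphase-promoting complex (-0.48 ± 0.0386). SMAD3, a TGF-beta signal transducer that CDK4 phosphorylates, separated all groups, at 53.3 and 54.4 CPM in FBG, 111 and 110 in FCP, 180 and 182 in aC, and 88.2 and 91 in Mock. Its log2 difference from Mock was -0.74 ± 0.0456 in FBG, 0.31 ± 0.0344 in FCP and 1.01 ± 0.0319 in aC, and aC exceeded FCP by 0.71 ± 0.0292. Over all 53 tested genes of these lists, 10 rose and 36 fell in FCP against Mock, 9 rose and 40 fell in aC against Mock, and 12 rose and 26 fell in FBG against Mock. Of all genes, 37.3% were called higher and 36.1% lower in FCP, 38% and 36.7% in aC, and 24.2% and 26.3% in FBG. With total counts in place of TMM, 14 of the 53 rose and 30 fell in FCP, 14 rose and 30 fell in aC, and 18 rose and 13 fell in FBG, so the balance in FBG turned with the scaling. Between aC and FCP 5 were higher and 2 lower.

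The position of the genes was not used to choose them. CCND2 differed far more than the genes around it. Of 9 tested genes within 1 Mb, 3 rose and 3 fell in FCP against Mock, and their median log2 difference was -0.03. TIGAR, a fructose bisphosphatase gene 15.9 kb away, had 33.7 and 34.8 CPM in FBG, 32.1 and 29.4 in FCP, 27.2 and 29.2 in aC, and 31.3 and 31.4 in Mock. No neighbour lay above PARP11, which rose by 0.72 ± 0.109 from 400.4 kb away. None lay below TSPAN9, which fell (-0.99 ± 0.0918) from 987.2 kb away. CDKN2A and CDKN2B, in contrast, were lower in FCP than in Mock among neighbours that were mostly higher. Of 11 tested genes within 1 Mb of CDKN2A, 7 rose and 1 fell, at a median of 0.57, which was close to the median of chromosome 9 as a whole, 0.58 over 705 genes.

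MTAP, a methionine salvage enzyme gene 26.6 kb from CDKN2A, had 74.4 and 72.6 CPM in FBG, 130 and 131 in FCP, 137 and 133 in aC, and 85.2 and 86.2 in Mock. It rose by 0.60 ± 0.034 in FCP against Mock, where CDKN2A differed by -0.99 ± 0.0201. LOC124902130 lies inside CDKN2A on the same strand, with no exon shared, and had 8.83 and 7.14 CPM in FBG, 25.7 and 26.3 in FCP, 29.5 and 28 in aC, and 2.8 and 3.53 in Mock. It rose by 3.04 ± 0.154 in FCP, opposite in sign to CDKN2A. That both lie on one strand comes from the annotation, and the counting used no strand setting. CDKN2B-AS1, the antisense RNA also called ANRIL that shares 9.62% of the CDKN2A exon length, rose by 0.57 ± 0.243 on 57 Mock counts. DMRTA1 was the neighbour that fell (-0.82 ± 0.134).

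**Figure D5:**
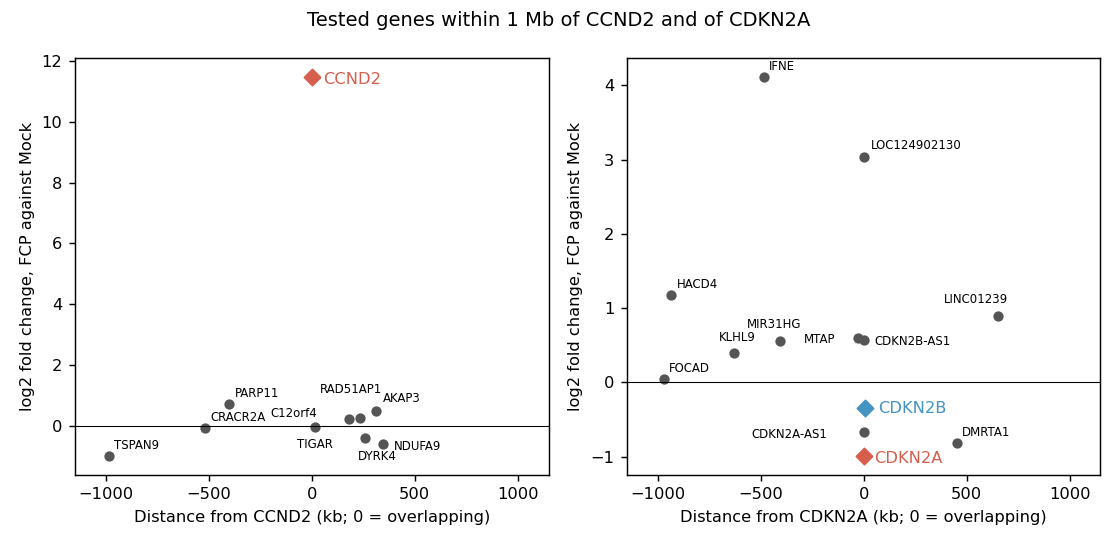
log2 fold change in FCP against Mock (vertical axis) of the tested genes within 1 Mb of CCND2 (left) and CDKN2A (right), by distance in kb (0 for overlapping genes), with the named genes as diamonds. CCND2 stands at 11.47 above neighbours between -0.99 and 0.72, and CDKN2A and CDKN2B lie below 0 while 9 of 11 neighbours of CDKN2A lie above it; IFNE rests on 3 Mock counts.

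Genes whose pattern over the 8 libraries was closest to that of each member were found by the root mean square difference of log2 CPM, each gene centred on its own mean. For CCND1 these were FAM135A at 0.0579, ZNF518B at 0.065 and AASS at 0.0782, small beside the CCND1 range of 1.86. ZNF518B, for example, had 17.5 and 19.2 CPM in FBG, 43.4 and 46.4 in FCP, 41.9 and 42.6 in aC, and 11.5 and 11.2 in Mock. For CCND2, whose range was 10.8, the closest were KRT5, a basal cell keratin, at 0.423, TP63, the basal cell transcription factor, at 0.674, and LAMB3, a laminin chain, at 0.719. TP63 had 0.0674 and 0.202 CPM in FBG, 79.1 and 79.4 in FCP, 110 and 108 in aC, and 0.0667 and 0.0666 in Mock, and unlike CCND2 it was higher in aC than in FCP. KRT5 and TP63 belong to the epithelial marker list given above. For CCND3 the closest were ZZEF1 at 0.024, RASSF3 at 0.028 and IRX2 at 0.0292, beside a CCND3 range of only 0.136. CDK4 was matched most closely by the ribosomal protein gene RPL9 (0.0253), CDK6 by the desmosome gene DSP (0.0978), CDKN2A by CHST15 (0.0374), CDKN2B by CAMKK2 (0.0602), CDKN2C by the Polycomb gene CBX2 (0.0785) and RB1 by SWAP70 (0.0281). These are likenesses over 8 libraries in 4 groups, which share their scaling.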

How the data were processed

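RNA was sequenced from 8 libraries of BEAS-2B cells, 2 per group. Each deposited file holds unnormalised counts per gene. The authors ran featureCounts 1.6.0 in paired-end mode on exons grouped by gene identifier, and no option for strand, multiple mapping or overlap was set, per the file headers. The submitters' processing notes name featureCounts 1.6.2, Trimmomatic 0.39, HISAT2 2.2.1, SAMtools 1.9 and GRCh38.p14, with no role or order. Gene positions were read from the deposited files, and promoters come from RefSeq.

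The test was the robust quasi-likelihood test of edgeR 4.0.16 (R 4.3.3) with TMM scaling and filterByExpr by group. All 8 libraries entered 1 model, with 4 residual degrees of freedom and a common coefficient of variation of 0.102. Benjamini-Hochberg adjustment ran over 16307 genes in each of 6 comparisons, and an adjusted p under 0.05 was a call. Tables and figures were made in Python 3.11.15. Log2 CPM used a prior count of 2. The fit was tested on simulated data. Alternatives were total counts in place of TMM, DESeq2 size factors, no filter on low counts, no robust step, 2 groups only, each library left out, a replicate block, GC content and length removed (a spline of 5 degrees of freedom over the 83.2% of tested genes with a GC value), both together, and DESeq2 1.42.0. Shares per gene length were also computed without length and, added after the data had been seen, per exon length that no other gene shares.

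The 9 genes and the pathway lists were chosen with earlier results of these data known. Beside the 9 genes, the genes named are the 3 with the smallest p in FCP against Mock in each pathway list, any on which a list's count turns, the 3 closest in pattern to each D-type cyclin and the 1 closest to each other gene, tested neighbours within 1 Mb of CCND2, CDKN2A and CDKN2B, and genes whose exons overlap. PARP11, TSPAN9, SMAD3 levels and the genes behind an exception were shown after their values were seen.

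Replicate libraries differed by 1.28 to 1.39 times their counting variance, so no set of counts was a copy of another. Their totals differed by 0.045% to 0.158%. A spread this near counting noise cannot tell separate cultures from repeat libraries of a single RNA sample. Depth limits only CCND2 in FBG and Mock among the 9 genes. Intervals are 95% and, like floors, cover counting error only.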

Additional observations from a re-analysis of the deposited data

How the results depend on the processing

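Of 917 recomputed fold changes of the 9 genes, 825 kept direction and call, 31 lost the call, 20 gained one and 41 changed sign. Every change of sign was in CCND3, RB1, CDKN2B, CDKN2C or CDK4. With total counts in place of TMM, CCND3 was 0.02 in FBG, 0.21 in FCP and 0.22 in aC against Mock and 0.01 in aC against FCP, RB1 was 0.22 in FCP and 0.22 in aC against Mock and 0.00 in aC against FCP, and CDKN2B in aC against Mock was 0.08. With GC content and length removed, with or without the replicate block, CCND3 was 0.14 in FBG, 0.23 in FCP and 0.19 in aC against Mock, CDKN2C in FBG against Mock 0.05, CDKN2B in aC against Mock 0.08, and in aC against FCP CDK4 was -0.02 and RB1 0.02. Without the filter on low counts, CCND3 in FCP against Mock was 0.00, RB1 there 0.01 and CDK4 in aC against FCP -0.00. With 2 groups only, CCND3 in FCP against Mock was 0.00 and RB1 0.01. Leaving out single libraries gave ranges across 0: in FCP against Mock -0.06 to 0.02 for CCND3 and -0.03 to 0.02 for RB1, in aC against Mock -0.07 to 0.03 for CCND3 and -0.06 to 0.05 for RB1, and in aC against FCP -0.04 to 0.03 for CCND3, -0.07 to 0.04 for RB1 and -0.05 to 0.05 for CDK4. The cause was not tested. Of the values that changed sign, those of CCND3 and RB1 in FCP and aC against Mock with total counts, and those of CCND3 in FBG, FCP and aC against Mock with GC content and length removed, passed the threshold, so that CCND3 in FBG against Mock was called in the opposite direction (adjusted p = 0.00302). The CCND3 calls in FBG against Mock and FCP against FBG (-0.09 and 0.08) also ended in most leave-one-out fits and in DESeq2, and the CDKN2B call in FCP against FBG ended without FBG replicate 1 (0.18) or FCP replicate 2 (0.19).

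Genes called in aC against FCP numbered 1470 in the fit of all libraries, 853 to 1616 when single libraries were left out, 909 or fewer when the library was of FCP or aC, and 877 in DESeq2, and pathway genes called there numbered 7, but 4 to 9 when single libraries were left out, the fewest without aC replicate 2. An arm of 1 library is assumed to vary like the other groups. Without division by gene length, CCND1, CCND2 and CCND3 made 62.6%, 0.262% and 37.2% of D-type cyclin counts in FBG, 48.4%, 38.6% and 12.9% in FCP, 51.4%, 34.4% and 14.2% in aC, and, for CCND1 and CCND3, 50.9% and 49.1% in Mock, and CDK6 made 11.9%, 57.7%, 59.8% and 7.23% of kinase counts in FBG, FCP, aC and Mock. Per unshared length, CCND1, CCND2 and CCND3 made 57.1%, 30.3% and 12.5% in FCP, CCND2 26.6% in aC, and CDK6 0.9%, 8.36%, 9.09% and 0.52% in FBG, FCP, aC and Mock. With total counts, calls against Mock split into 5186 higher and 3010 lower for FBG, in place of 3941 and 4285, 7679 and 4493 for FCP, in place of 6085 and 5884, and 7782 and 4489 for aC, in place of 6199 and 5984.

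The labels number replicates 1 and 2 in each group without saying what a number shares. Deviations of same-numbered libraries correlated at -0.0624 to 0.0702 over 10244 genes in the 6 comparisons, with 2 pairs in each. So few pairs cannot tell whether same-numbered libraries shared a culture or a day. With the replicate block, calls against Mock numbered 8128 for FBG, 11906 for FCP and 12130 for aC, calls against FBG 10835 for FCP and 11086 for aC, and calls between aC and FCP 1410, and of the 9 genes' calls the CCND3 calls in FBG against Mock and FCP against FBG ended (adjusted p = 0.0525 and 0.0557).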

Other observations

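The surroundings of the kinase genes, left out above, mostly moved the same way as the kinases. Of 38 tested genes within 1 Mb of CDK4, 7 rose and 22 fell in FCP against Mock, at a median log2 difference of -0.57 beside -0.02 for the 808 tested genes of chromosome 12. OS9, a gene of protein quality control 26.2 kb away, was at -0.73 in FCP and -0.76 in aC, and METTL1, a tRNA methyltransferase gene 16.2 kb away, at -0.78 and -0.67. CYP27B1, the vitamin D 1-alpha-hydroxylase gene, lies nearer to CDK4 than both and rose, at 2.30 in FCP and 2.39 in aC. Of 15 tested genes within 1 Mb of CDK6, 10 rose and 2 fell in FCP against Mock, at a median of 0.72 beside 0.04 for the 783 tested genes of chromosome 7. Among those that rose, ERVW-1 rests on 0 Mock counts and LOC112268009 on 2. LOC112268009 also lies inside CDK6 on the same strand, so it is not a separate neighbour. CYP51A1, a sterol synthesis enzyme gene, was among those that fell, at -0.50 in FCP and -0.68 in aC. SAMD9 and SAMD9L, a pair of interferon-responsive genes, were at 2.37 and 2.33 in FCP and at 2.63 and 2.86 in aC. Within 1 Mb of CCND1, by comparison, 2 of 15 tested genes rose and 5 fell, at a median of -0.11. Around RB1, 7 of 14 tested genes rose and 1 fell in FBG against Mock, where RB1 rose by 0.45. Their median was 0.33, beside 0.20 for the 293 tested genes of chromosome 13. Around CCND3, 16 of 37 tested genes rose and 12 fell in FCP against Mock, at a median of 0.09 beside 0.48 for chromosome 6. The neighbours in this section were named after their values were seen.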
